A study of Mus musculus with 8 samples.

Results

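The genes described here encode cytosolic sensors of bacterial products and cell damage, together with the proteins that act directly below them. They are the inflammasome sensors Nlrp3, Nlrc4 and Aim2, the NOD sensors Nod1 and Nod2, the adaptor Pycard, the inflammatory caspases Casp1 and Casp4, the pore-forming protein gene Gsdmd, and Txnip, whose product binds thioredoxin and has been linked to NLRP3. The genes were chosen by symbol, and all 10 were found among the 38392 genes of the deposited table.

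An inflammasome is a protein complex in which an activated sensor, often through the adaptor ASC (encoded by Pycard), brings together and activates caspase-1. Active caspase-1 matures some cytokines of the interleukin-1 family, among them the products of Il1b and Il18. It also cleaves gasdermin D, whose fragments open pores in the plasma membrane. NOD1 and NOD2 recognise pieces of bacterial peptidoglycan and signal through the kinase RIPK2 to NF-kappaB, and loss of NOD2 function is a known risk factor for inflammation of the small intestine.

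RNA was sequenced from cells labelled as eosinophils, granulocytes that arise in marrow and take up residence in the intestinal wall, after sorting from wildtype C57/BL6 mice, with 4 libraries from bone marrow and 4 from small intestine. Marrow cells were gated as CD11b+Ly6G-Ly6C-SiglecF+SSChi and intestinal cells as CD11b+MHC-II-SiglecF+SSChi. The study describes the libraries of each tissue as coming from separate female mice. The labels give no treatment and no age, which the study gives only as a range over all its experiments. The intestine was stripped of epithelium, digested with warm enzyme and passed over anti-CD11b beads, whereas marrow was flushed out and sorted unselected, so tissue and handling cannot be told apart. The libraries are named by the columns of the table, where BM marks bone marrow (BM_1, BM_3, BM_4, BM_5) and SI small intestine (SI_6, SI_7, SI_10, SI_11).

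The libraries held 11508002 to 21289164 reads in genes. The sorted cells carried RNA of other cell types in both tissues. The summed level of 12 neutrophil precursor markers was 400513 to 516300 normalised counts (reads divided by the library's size factor) in marrow and 38386 to 54995 in intestine, and nearly all of the intestinal sum came from Retnlg. In marrow this RNA far exceeded that of eosinophil genes. By the surface marker genes, but not the granule genes, the label was borne out less well there than in intestine. Per kilobase of exon the mean normalised count in marrow was 43768 for the neutrophil granule gene Mpo. For Ly6c2, whose product the gate was set to exclude, it was 3017. The eosinophil granule genes stood at 128 for Epx, 2185 for Prg2 and 49.9 for Prg3. The other eosinophil markers stood at 208 for Siglecf, 21.7 for Ccr3, 3.09 for Il5ra, 2814 for Itgam and 49.7 for Adgre1. In intestine the mean was 48.0 for Mpo and 6.10 for Ly6c2. There Siglecf stood at 1103, Ccr3 at 4997, Il5ra at 310, Itgam at 8426 and Adgre1 at 4222. The granule genes stood at 7.52 for Epx and 6.89 for Prg3, both below Mpo, and 175 for Prg2. The differences described below are therefore between libraries of sorted cells, and how far they are differences between eosinophils was not tested. The sum of 12 epithelial markers was 84.2 to 139 in marrow, 6554 in SI_10, 8106 in SI_11, 22894 in SI_7 and 50679 in SI_6, and all 12 were higher in intestine. The sum of 12 genes that respond to tissue dissociation was 945 to 1280 in marrow and 89443 to 117709 in intestine, where all 12 were higher. Among eosinophil markers, Siglecf, Ccr3, Il5ra, Itgam and Adgre1 were higher in intestine and the granule protein genes Epx, Prg2 and Prg3 lower, with Epx at 303 to 398 normalised counts in marrow and 12.5 to 29.5 in intestine. The part of these cell types and of the dissociation in the results below was not tested, except where a value is given. In bulk RNA, fewer cells of a type and less RNA per cell cannot be told apart.

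Nod2, Nlrp3 and Txnip were much higher in the intestinal than in the marrow libraries, Nod1 and Gsdmd were moderately higher except after centring on the median gene, and none of the 10 genes was lower by the same test. The mean level in intestine was 31.1-fold that in marrow for Nod2, 19.4-fold for Nlrp3, 8.99-fold for Txnip, 1.99-fold for Nod1 and 1.74-fold for Gsdmd. Pycard, Casp1, Casp4, Nlrc4 and Aim2 did not pass the test. The differences of the adaptor and the caspases lay between -0.58 and 0.12 on the deposited log2-like scale, on which a value 1 higher stands for about double the count once a gene has enough reads.

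A gene was called where limma on the deposited log2-like values gave a Benjamini-Hochberg adjusted p below 0.05. By that measure 5 of 10 genes were called, against 34.9% of all genes and 63.1% of the 16215 genes averaging 10 or more reads, as all 10 genes did. All 5 calls were higher in intestine, against 22.0% of all genes called higher, and 0 of 10 were called lower, against 12.9% of all genes. The libraries of the tissues did not overlap for 6 of 10 genes, against 34.3% of all genes. That share was not determined for genes averaging 10 or more reads. When only those 16215 genes were fitted, 6362 were called higher and 5462 lower, 72.9% in all. In that fit 7 of the 10 genes were called, Nlrc4 lower and the others higher. The median difference was 0.59 over the 10 genes, 0.37 over all genes and 0.12 over those averaging 10 or more reads. In the fit of all genes, the share of the 10 genes that were called thus lay between that of all genes and that of the better covered ones.

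Scaling mattered for the smaller differences. Of all calls 63.2% were higher in intestine on the deposited scale, 45.8% after quantile normalisation and 29.5% when each library was centred on its median gene. The centring moved every difference by -0.90 and left Nod2, Nlrp3 and Txnip called higher, with differences of 3.96, 2.93 and 2.21. Under it Nod1 (0.07, limma adjusted p = 0.914) and Gsdmd (-0.11, limma adjusted p = 0.871) were no longer called, and Nlrc4 (-1.99, limma adjusted p = 0.000239) and Pycard (-1.48, limma adjusted p = 0.00865) were called lower. That median was taken over all 38392 genes, of which 16215 averaged 10 or more reads. Centring on the median of those 16215 genes, chosen after seeing the data, kept Nod1 (0.91, limma adjusted p = 0.0111) and Gsdmd (0.73, limma adjusted p = 0.0490) called higher. Nlrc4 was then called lower (-1.15, limma adjusted p = 0.0375) and Pycard (-0.64, limma adjusted p = 0.305) was not called.

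**Figure D1:**
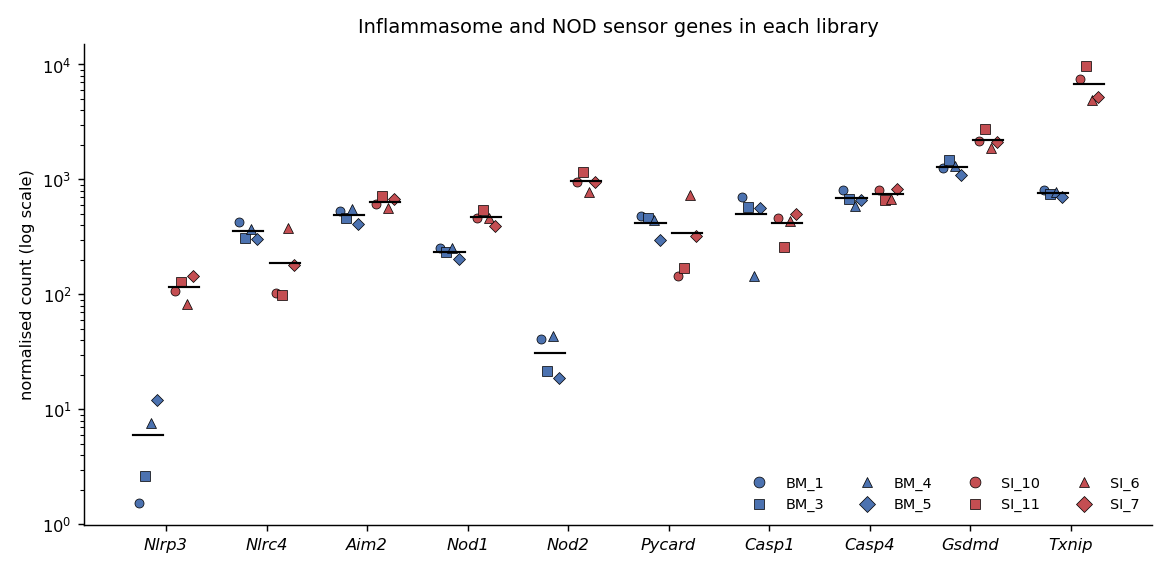
Normalised count of each of the 10 genes (vertical axis, log scale) in the 4 bone marrow libraries (blue) and the 4 small intestine libraries (red), with a bar at the mean of each tissue. Nod2, Nlrp3 and Txnip are separated by a wide gap between the tissues, while Pycard, Casp1, Casp4 and Nlrc4 overlap.

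The sequences just before the transcription start are shown for the 3 genes with the largest differences, Nod2, Nlrp3 and Txnip, and for Casp4, whose level was close in both tissues. They are the 250 bases upstream of the RefSeq start on build GRCm38.p6, read 5′ to 3′ on the gene's strand, which is the plus strand for each, and where a gene has several starts the most upstream was taken. Capitals mark matches on either strand to the motifs searched, which were CACGTG (the E-box), GCGTG (the core of the aryl hydrocarbon receptor element), TGANTCA (AP-1) and the NF-kappaB consensus.
Nod2, chr8:88647097-88647346: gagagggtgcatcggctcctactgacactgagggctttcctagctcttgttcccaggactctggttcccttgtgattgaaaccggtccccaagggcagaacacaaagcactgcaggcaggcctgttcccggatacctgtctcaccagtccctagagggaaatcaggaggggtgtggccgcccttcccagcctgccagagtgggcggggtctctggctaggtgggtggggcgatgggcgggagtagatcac
Nlrp3, chr11:59541319-59541568: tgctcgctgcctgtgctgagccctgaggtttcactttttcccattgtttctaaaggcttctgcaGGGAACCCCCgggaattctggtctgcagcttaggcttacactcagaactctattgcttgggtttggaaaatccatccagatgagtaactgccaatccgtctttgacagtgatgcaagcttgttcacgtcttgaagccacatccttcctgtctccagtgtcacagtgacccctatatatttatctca
Txnip, chr3:96557707-96557956: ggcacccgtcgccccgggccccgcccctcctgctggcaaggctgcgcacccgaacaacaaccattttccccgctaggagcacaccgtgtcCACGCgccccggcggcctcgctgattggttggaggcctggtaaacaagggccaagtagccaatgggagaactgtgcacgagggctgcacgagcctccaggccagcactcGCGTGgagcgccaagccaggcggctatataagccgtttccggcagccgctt
Casp4, chr9:5308599-5308848: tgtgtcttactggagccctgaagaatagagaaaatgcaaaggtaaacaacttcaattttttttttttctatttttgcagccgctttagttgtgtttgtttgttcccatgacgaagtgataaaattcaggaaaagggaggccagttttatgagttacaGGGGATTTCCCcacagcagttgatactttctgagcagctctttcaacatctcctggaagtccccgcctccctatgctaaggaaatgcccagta

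The window of Nlrp3 held 1 NF-kappaB match, which began 186 bases before the start, and that of Casp4 held 2 overlapping ones at 93 and 92 bases. Txnip held GCGTG at 160 and 51 bases, and Nod2 matched none of the 4 motifs. Among all 32851 RefSeq windows of this length, 3.90% held the NF-kappaB consensus, 28.2% GCGTG, 6.75% TGANTCA and 6.02% CACGTG. Of the other windows that could be read, that of Casp1 held CACGTG at 137 bases and those of Nlrc4, Aim2, Nod1 and Pycard matched none of the motifs. An NF-kappaB match was thus found before a gene that was called between the tissues and before one that was not. A match describes the letters alone.

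Nlrp3, the sensor that responds to potassium loss and membrane damage, lies on chromosome 11 (59541568 to 59566956, plus strand, GRCm38). It had 1.53 normalised counts in BM_1, 2.61 in BM_3, 7.66 in BM_4 and 12.1 in BM_5, against 106 in SI_10, 128 in SI_11, 83.0 in SI_6 and 146 in SI_7. Each intestinal library lay above each marrow library, and the marrow values rested on only 2 to 13 reads, against 76 to 108 in intestine. The mean rose from 5.97 ± 4.87 to 116 ± 27.1 (SD, n = 4 each), a difference of 3.83 ± 0.41 (SE; limma adjusted p = 0.000158). The highest marrow value was that of BM_5, in which 30886 genes had a read against 19713 to 24592 in the other marrow libraries, and without BM_5 the difference was 4.14. Even in intestine Nlrp3 had the lowest mean level of the 10 genes per kilobase of exon.

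Nod2, the sensor of muramyl dipeptide, lies on chromosome 8 (88647315 to 88688474, plus strand). Its normalised count was 40.6 in BM_1, 21.5 in BM_3, 43.1 in BM_4 and 18.6 in BM_5, and it was 954 in SI_10, 1168 in SI_11, 774 in SI_6 and 954 in SI_7. The gap between the tissues was far wider than the spread within either. The mean rose from 30.9 ± 12.7 to 962 ± 161, and the difference of 4.86 ± 0.30 was the largest of the 10 genes (limma adjusted p = 8.4e-06). In marrow 62.7% of all genes had a lower mean level per kilobase than Nod2, and in intestine 91.9% did.

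Nod1, which recognises peptidoglycan with diaminopimelic acid, lies on chromosome 6 (54923949 to 54972612, minus strand). It had 253 normalised counts in BM_1, 233 in BM_3, 253 in BM_4 and 202 in BM_5, against 462 in SI_10, 546 in SI_11, 463 in SI_6 and 397 in SI_7. The tissues did not overlap, and the mean rose from 235 ± 24.1 to 467 ± 61.4. The difference was 0.97 ± 0.19 (limma adjusted p = 0.00384), except under median centring, as given above. The NOD sensors, whose exons have nearly equal length (5079 bases for Nod1 and 5014 for Nod2), changed to a different extent, and their order reversed. Within a library, where the size factor cancels except for a pseudocount of 0.5, Nod2 stood at 0.0941 to 0.172 of Nod1 in marrow. In intestine Nod2 stood at 1.67 to 2.40 of Nod1, and the log2 ratio rose by 4.03 (2-sided exact permutation test p = 0.0286, the smallest that 4 libraries against 4 allow, and 0.0381 after adjustment over the 8 pairs tested).

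Nlrc4, which with the NAIP receptors detects flagellin and parts of bacterial secretion systems, lies on chromosome 17 (74425438 to 74459142, minus strand). Its normalised count was 424 in BM_1, 312 in BM_3, 373 in BM_4 and 302 in BM_5, against 103 in SI_10, 99.6 in SI_11, 377 in SI_6 and 179 in SI_7. SI_6 lay within the marrow range and the other intestinal libraries below it. The mean was 353 ± 56.7 in marrow and 189 ± 130 in intestine, and the difference of -1.09 ± 0.42 missed the threshold (limma adjusted p = 0.0761). Without SI_6 the difference was -1.48 and was called (limma adjusted p = 0.00473). Nlrc4 was also called lower when genes averaging under 10 reads were left out, with limma's trend and with voom, and when libraries were centred on the median or on the genes with at least 10 reads.

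Aim2, a sensor of DNA in the cytosol, lies on chromosome 1 (173350879 to 173466040, plus strand). It had 529 normalised counts in BM_1, 459.8 in BM_3, 555 in BM_4 and 413 in BM_5, and 612 in SI_10, 715 in SI_11, 569.8 in SI_6 and 669.8 in SI_7. Each intestinal library exceeded each marrow library, but the gap was narrow and the test was not passed (0.39 ± 0.19, limma adjusted p = 0.152). It was called higher in 4 of the 16 alternative settings, and median centring gave it a difference of -0.51.

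**Figure D2:**
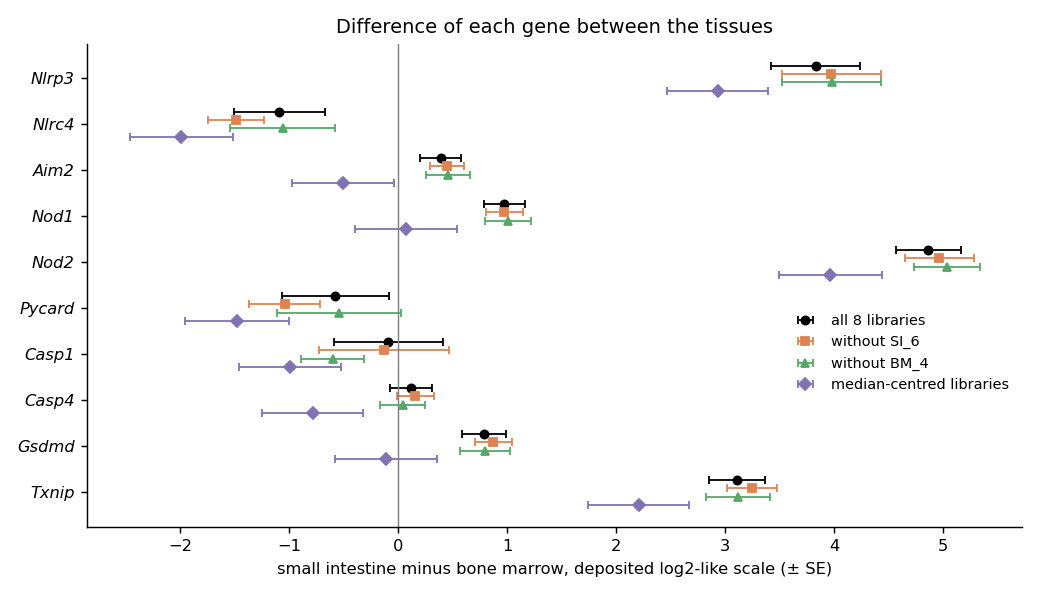
Difference of each of the 10 genes between the tissues (horizontal axis, intestine minus marrow in deposited log2-like units, bars ± SE) with all 8 libraries, without SI_6, without BM_4 and after centring each library on its median gene. Nlrp3, Nod2 and Txnip lie to the right of 0 in each setting, Nlrc4 and Pycard move further to the left without SI_6, and centring takes Gsdmd to -0.11 and Nod1 to 0.07.

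Pycard, the adaptor that joins several sensors to caspase-1, lies on chromosome 7 (127989708 to 127993867, minus strand). Its normalised count was 477 in BM_1, 463 in BM_3, 443 in BM_4 and 299 in BM_5, against 144 in SI_10, 169 in SI_11, 734 in SI_6 and 322 in SI_7. The intestinal libraries spread over a wider range than the marrow libraries and lay both above and below them. The mean was 420.5 ± 81.9 in marrow and 342 ± 272 in intestine, and the difference of -0.58 ± 0.49 was not called (limma adjusted p = 0.426). Without SI_6 it was -1.04 and passed the threshold narrowly (limma adjusted p = 0.04996). In the annotation 485 bases of Pycard's exons overlap those of an antisense gene, Gm45205, and since the strand setting of the counting is not given, reads of the pair cannot be told apart.

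The intestinal order of Pycard, SI_6, SI_7, SI_11 and SI_10 from high to low, was that of the summed markers of epithelium, dendritic cells, B and plasma cells, and monocytes and macrophages alike, and Nlrc4 had the same leading pair. From SI_6 to SI_10 these sums went from 50679 to 6554, from 2265 to 524, from 2655 to 427 and from 4227 to 2800.5 normalised counts. Intestinal epithelium and myeloid cells are both known to express Nlrc4 and Pycard. Of the 10 genes, Nlrc4 and Pycard were highest in SI_6, while Nlrp3, Aim2, Nod2, Gsdmd and Txnip were lowest in it. SI_6 also had the lowest sum of eosinophil markers, 61022 against 74693 to 93272 in the other intestinal libraries. The differences of Nod2, Nlrp3, Txnip, Nod1 and Gsdmd were called without SI_6, at 4.96, 3.97, 3.25, 0.98 and 0.87. The part of each of these cell types in the levels of Pycard and Nlrc4 was not tested.

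**Figure D3:**
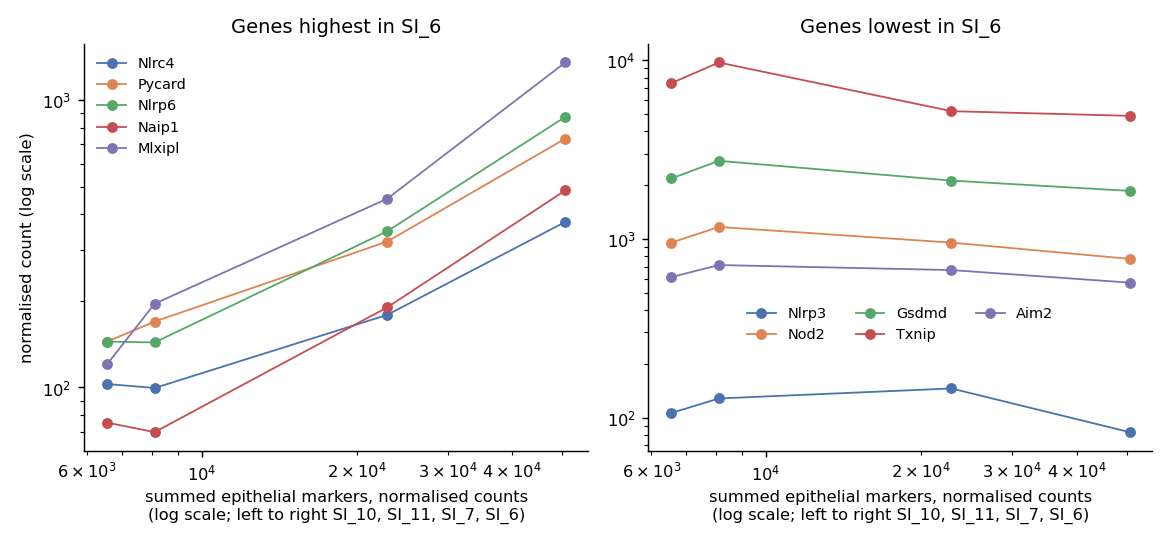
Normalised counts of single genes (vertical axis, log scale) against the summed normalised count of 12 epithelial markers (horizontal axis, log scale) in the 4 small intestine libraries, joined by lines. On the left are Nlrc4, Pycard and, chosen after their values were seen, Nlrp6, Naip1 and Mlxipl, which peak in SI_6, and on the right are the 5 of the 10 genes that were lowest in SI_6, while the sums of 3 other marker lists order the libraries in the same way.

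Casp1, the central protease of the inflammasome, and Casp4, known as caspase-11 in mice and activated by lipopolysaccharide in the cytosol, are neighbours on chromosome 9 (5298517 to 5307265 and 5308828 to 5336783, both on the plus strand). Casp1 had 706 normalised counts in BM_1, 575 in BM_3, 145 in BM_4 and 567 in BM_5, against 465 in SI_10, 256 in SI_11, 439 in SI_6 and 503 in SI_7. BM_4 lay far below the other marrow libraries and below all intestinal ones. The difference was -0.09 ± 0.50 (limma adjusted p = 0.908) with all libraries and -0.60 without BM_4 (limma adjusted p = 0.177).

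For Casp4 the normalised count was 817 in BM_1, 680.2 in BM_3, 585 in BM_4 and 665 in BM_5, and 807 in SI_10, 665 in SI_11, 675 in SI_6 and 824 in SI_7. The ranges of the tissues nearly coincided. The mean was 687 ± 96.3 in marrow and 743 ± 84.5 in intestine, a difference of 0.12 ± 0.19 (limma adjusted p = 0.659). Neither caspase gene was called in any of the 16 alternative settings. The ratio of Casp4 to Casp1 within a library was 1.16 to 4.01 in marrow and 1.54 to 2.59 in intestine, and the mean log2 ratio differed by 0.20 (2-sided exact permutation test p = 0.743). The genes resemble each other in sequence, and how reads that match both were counted is not given in the sources used here.

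Gsdmd, the substrate through which both caspases open the plasma membrane, lies on chromosome 15 (75862327 to 75867408, plus strand). It had 1252 normalised counts in BM_1, 1482 in BM_3, 1298 in BM_4 and 1084 in BM_5, against 2180.2 in SI_10, 2738 in SI_11, 1859 in SI_6 and 2122 in SI_7. Every intestinal library exceeded every marrow library. The mean rose from 1279 ± 164 to 2225 ± 370, a difference of 0.79 ± 0.20 (limma adjusted p = 0.0154) that was called in 15 of the 16 alternative settings, median centring being the exception. Casp1 stood at 0.112 to 0.564 of Gsdmd in marrow and at 0.0937 to 0.237 in intestine, ranges that overlap (log2 ratio -0.88, 2-sided exact permutation test p = 0.2, adjusted 0.229).

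Txnip, an arrestin family protein that binds thioredoxin and restrains glucose uptake, lies on chromosome 3 (96557957 to 96561883, plus strand). Its normalised count was 804 in BM_1, 741 in BM_3, 778 in BM_4 and 710.3 in BM_5, against 7444 in SI_10, 9726 in SI_11, 4890.2 in SI_6 and 5191 in SI_7. The marrow libraries were close to each other, and the intestinal libraries were all far above them but differed among themselves by up to 1.99-fold. The mean rose from 758 ± 41.1 to 6813 ± 2252, a difference of 3.11 ± 0.26 (limma adjusted p = 3.65e-05). The ratio of Txnip to Txn1, the gene of the thioredoxin that TXNIP binds, was 0.132 to 0.154 in marrow and 0.962 to 3.55 in intestine (log2 ratio 3.87 higher, 2-sided exact permutation test p = 0.0286, adjusted 0.0381). The antisense gene Gm15441 overlaps 606 bases of Txnip's exons. It was listed at a mean of 5.41 normalised counts in marrow and 17.4 in intestine, a small number beside the level of Txnip.

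Levels could be set against each other per kilobase of exon. In marrow the order of the mean normalised count per kilobase was Gsdmd (538), Casp1 (333), Txnip (243), Casp4 (185), Aim2 (140), Pycard (111), Nlrc4 (73.4), Nod1 (46.3), Nod2 (6.17) and Nlrp3 (1.47). Gsdmd, Casp1 and Txnip overlapped each in turn with the next, as did Casp4, Aim2, Pycard and Nlrc4, whereas Nod1, Nod2 and Nlrp3 each lay below the gene before with no overlap of libraries, and so did Casp4 below Txnip. The mean levels of both caspase genes and Gsdmd thus exceeded those of all 5 sensors in marrow, although Casp4 and Aim2 overlapped. The place of Casp4 depends on the length used, as its exons cover 3710 bases and its longest transcript 1901. By the longest transcript each marrow library of Casp4 lay above those of Txnip and Aim2, and its mean above that of Casp1.

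In intestine the order was Txnip (2182), Gsdmd (936), Casp1 (278), Casp4 (200.2), Nod2 (192), Aim2 (183), Nod1 (91.9), Pycard (90.1), Nlrc4 (39.4) and Nlrp3 (28.5). Txnip lay above Gsdmd, Gsdmd above Casp1, and Aim2 above Nod1 with no overlap of libraries, and the other neighbours overlapped. By length of exon Nod2 had moved from the ninth place to the level of Casp4 and Aim2, and Txnip to the first. Lengths are the union of annotated exons. With the length of the longest transcript 6 of the 10 genes kept their place in the intestinal order. Casp4, at 1901 bases instead of 3710, then lay above Nod2 with no overlap of libraries, and its mean above that of Casp1. Nod2 still overlapped Aim2. For Pycard both lengths are 3800 bases, most of its annotated gene, so the other length leaves its level unchanged in either tissue. A shorter transcript would give Pycard a higher level.

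Ratios of normalised counts within a library do not depend on the size factor and compare libraries, not the levels of the genes. Nlrp3 stood at 0.00426 to 0.0420 of Pycard in marrow and at 0.114 to 0.756 in intestine, and the log2 ratio was 5.08 higher. Against Nlrc4 it stood at 0.00479 to 0.0416 in marrow and at 0.221 to 1.28 in intestine, and the log2 ratio was 5.60 higher. Both passed the 2-sided exact permutation test (p = 0.0286, adjusted 0.0381), and in both SI_6 had the lowest intestinal ratio.

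The other genes of these pathways were taken from 8 lists by role with 86 genes, all of them in the table. Of these, 45 were called higher in intestine, 8 were called lower and 33 were not called, and the median difference was 1.17. The 53 calls in either direction are 61.6% of the 86 genes, close to the 63.1% among genes averaging 10 or more reads, as 81 of the 86 did. The lists were drawn up with earlier results of these data known.

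**Figure D4:**
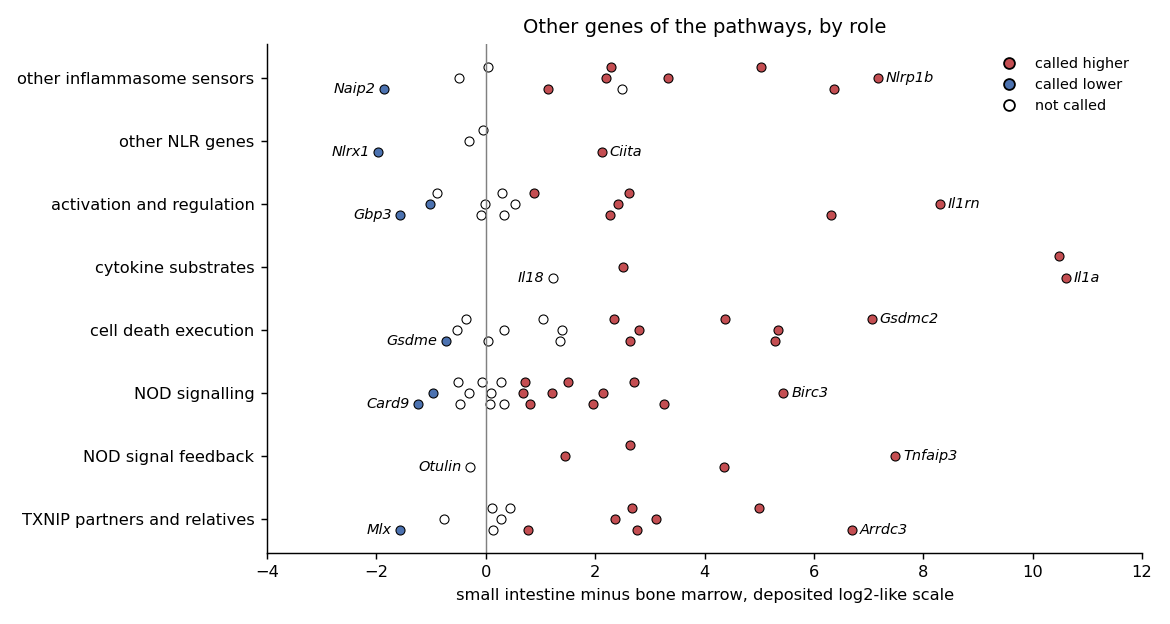
Difference between the tissues (horizontal axis, intestine minus marrow in deposited log2-like units) of the 86 other pathway genes in 8 lists, each point a gene, red where called higher, blue where called lower and white where not called. The cytokine genes Il1a and Il1b lie farthest to the right, beyond 10, and the lowest and highest gene of each list are named.

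Among 11 other inflammasome sensor genes, 7 were called higher and 1 lower, with a median difference of 2.29. Nlrp1b had 0.766 to 14.9 normalised counts in marrow and 895 to 1211 in intestine (7.17 ± 0.48, limma adjusted p = 1.23e-05). Nlrp6 (6.36 ± 0.69) and Naip1 (5.03 ± 0.78), which recognises the needle protein of secretion systems, were also higher, and both peaked in SI_6, at 873 and 485 normalised counts against 143 to 349 and 69.9 to 190 in the other intestinal libraries. The flagellin receptors Naip5 (2.29 ± 0.18) and Naip6 (2.19 ± 0.22) rose, while Naip2, which recognises their rod protein, fell by 1.87 on the log2-like scale, from 1454 ± 161 to 408 ± 124 normalised counts. The receptors that pair with Nlrc4 thus moved in both directions. The Naip genes resemble each other in sequence, as do the Nlrp1 genes, so counts may be shared within each family.

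Among 4 other NLR genes, Ciita, the master regulator of MHC class II genes, rose from 9.19 ± 4.85 to 57.6 ± 41.0 normalised counts (2.12 ± 0.57, limma adjusted p = 0.0199), with 105 in SI_6 and 21.3 to 79.0 in the other intestinal libraries. The difference of Ciita was not called without BM_1 (1.75), SI_6 (1.75) or SI_7 (1.88), nor after quantile normalisation (1.34). Nlrx1, whose product sits in mitochondria and restrains innate signalling, fell from 419 ± 27.9 to 104 ± 3.08 (limma adjusted p = 4e-05). Nlrc5 had a difference of -0.06 ± 0.21 and was not called.

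Of 14 genes that activate or restrain inflammasomes and interleukin-1, 6 were called higher and 2 lower. The largest rises were those of natural inhibitors of interleukin-1. The receptor antagonist gene Il1rn had 68.9 to 109.7 normalised counts in marrow and 23177 to 35075 in intestine (8.30 ± 0.22), and the decoy receptor gene Il1r2 had 168 to 222 in marrow and 14082 to 17279 in intestine (6.31 ± 0.18). The guanylate-binding protein genes moved apart, Gbp2 rising by 2.61 and Gbp3 falling by 1.57 on the log2-like scale. Brcc3, a deubiquitinase that primes NLRP3, fell by 1.02, whereas Nek7, the kinase that NLRP3 needs for assembly, had a difference of 0.34 ± 0.18 and was not called (limma adjusted p = 0.203).

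The cytokine genes Il1a and Il1b showed the largest rises of all genes in these lists. Il1b had 26.0 normalised counts in BM_1, 28.7 in BM_3, 45.0 in BM_4 and 20.5 in BM_5, against 58573 in SI_10, 59503 in SI_11, 34836 in SI_6 and 39783 in SI_7, and the difference was 10.49 ± 0.29 (limma adjusted p = 2.43e-07). Il1a, whose product is matured by calpain and not by caspase-1, had 13.0 to 21.5 in marrow and 25248 to 38028 in intestine (10.60 ± 0.23). Il18, the other main substrate of caspase-1, stayed low in most libraries, with 2.30 to 8.37 in marrow, 4.38 to 12.5 in SI_10, SI_11 and SI_7 and 52.4 in SI_6 (1.22 ± 0.57, limma adjusted p = 0.139). Il33 was called higher at 2.51 ± 3.51 normalised counts in marrow and 20.2 ± 9.35 in intestine. It rested on 0 to 8 reads in the marrow libraries and 8 to 27 in the intestinal ones, and had the intestinal order of Nlrc4. Within a library Il1b stood at 0.0369 to 0.312 of Casp1 in marrow and at 79.0 to 232 in intestine, and the log2 ratio was 10.73 higher (2-sided exact permutation test p = 0.0286, adjusted 0.0381). The RNA of the substrate thus shifted against that of its protease, which did not pass the test.

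Of 15 genes of cell death execution, 7 were called higher and 1 lower. Gsdmc2 had 0 reads in each marrow library and 187, 160.01, 357 and 359 normalised counts in SI_10, SI_11, SI_6 and SI_7. Its neighbours in the family, Gsdmc3 (5.35 ± 0.55) and Gsdmc4 (5.28 ± 0.45), were called higher and were likewise higher in SI_6 and SI_7 than in SI_10 and SI_11. The Gsdmc genes resemble each other closely, so reads may be shared among them. Ninj1, which ruptures the plasma membrane after pores have formed, rose from 104 ± 29.0 to 2154 ± 334 normalised counts (4.37 ± 0.27, limma adjusted p = 8.87e-06). Gsdme, the gasdermin cut by caspase-3, fell by 0.73 on the log2-like scale. Casp8 had a mean of 2508 ± 95.0 in marrow and 2584 ± 292 in intestine and was not called.

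Of 20 genes of NOD signalling, 10 were called higher and 2 lower, with a median difference of 0.51. Ripk2, the kinase both NOD sensors need, had 88.1 normalised counts in BM_1, 102 in BM_3, 97.6 in BM_4 and 135 in BM_5, against 74.4 in SI_10, 73.5 in SI_11, 64.4 in SI_6 and 74.9 in SI_7. Its intestinal libraries lay below the marrow libraries without overlap, although the test was not passed (-0.52 ± 0.20, limma adjusted p = 0.0733). The ratio of Nod2 to Ripk2 rose from 0.141 to 0.464 in marrow to 11.9 to 15.8 in intestine, 5.55 on the log2 scale (2-sided exact permutation test p = 0.0286, adjusted 0.0381). Receptor and kinase therefore did not move together.

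Further down the NOD pathway, the ubiquitin ligase gene Birc3 rose from 512 ± 42.7 to 22518 ± 3105 normalised counts (5.44 ± 0.19) and Nfkb1, a subunit of NF-kappaB, from 1542 ± 162 to 10245 ± 2266 (2.70 ± 0.23). Card9, an adaptor that links NOD2 to MAP kinases, fell by 1.24 on the log2-like scale. The transporters that carry muramyl dipeptide out of endosomes split, with Slc15a3 at 5.53 ± 2.60 in marrow and 84.9 ± 41.2 in intestine (3.26 ± 0.38) and Slc15a4 at 529 ± 70.7 and 269 ± 33.3 (-0.96 ± 0.19), both called. Slc15a3 rested on 3 to 12 reads in the marrow libraries. It had 142 normalised counts in SI_6, against 43.9 to 80.4 in the other intestinal libraries, and the intestinal order of Nlrc4.

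Of 5 genes that feed back on NOD and NF-kappaB signalling, 4 were called higher and 0 lower. Tnfaip3, which encodes the deubiquitinase A20, had 205 to 356 normalised counts in marrow and 36942 to 59427 in intestine (7.49 ± 0.25). Nfkbia, the gene of the NF-kappaB inhibitor, rose by 4.35 ± 0.26, Cyld by 2.63 ± 0.18 and Itch by 1.45 ± 0.19 on the log2-like scale. Centring on the median gene left Itch, alone of the 4, without a call. The sum of the dissociation-response genes given above was likewise higher in every intestinal library than in every marrow library, as was each of these 4 genes and of Il1a and Il1b, and its part was not tested. Among the intestinal libraries the sum was highest in SI_11, then in SI_10, and lowest in SI_7. Il1b, Tnfaip3 and Cyld were likewise highest in SI_11 and then SI_10, and Nfkbia had this leading pair in reverse. Itch was highest in SI_11 and then SI_7, and Il1a was highest in SI_7 and then SI_10.

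Of 13 partners and relatives of TXNIP, 7 were called higher and 1 lower. Arrdc3, an arrestin relative, rose from 177 ± 22.8 to 19407 ± 5918 normalised counts (6.69 ± 0.28), and Slc2a1, the glucose transporter that TXNIP helps to remove from the membrane, from 245 ± 28.2 to 2225 ± 766 (3.10 ± 0.28). Both were lowest in SI_6 among the intestinal libraries, as Txnip was. Mlxipl, a glucose-responsive activator of Txnip, was higher by 4.99 ± 0.71, but with 1350.3 normalised counts in SI_6 and 120.3 to 453 in the other intestinal libraries it had the intestinal order of Pycard and of the same 4 marker sums. Its partner Mlx fell by 1.58 on the log2-like scale. The difference of Txn1 was -0.76 ± 0.28 (limma adjusted p = 0.0674) with all libraries and was called without SI_6 (limma adjusted p = 0.0044). Txn1 had 5086 normalised counts in SI_6, within the marrow range of 4610.3 to 5629, and 2096 to 2908 in the other intestinal libraries.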

How the data were processed

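RNA from FACS-sorted eosinophils was amplified, sequenced from a single end and, per the labels and the study's methods, aligned to GRCm38 (Ensembl release 86) with nf-core/rnaseq. Neither the aligner and strand setting nor the counting of ambiguous reads is given in the sources used here. The authors deposited log2-like values, made with the variance stabilisation of DESeq2 in R 4.0.3. The table was taken to be a closed-form transform of size-factor-scaled reads. Inverting it returned whole reads (within 0.05) for 100% of genes in each library, which gave the totals and normalised counts. Columns could be matched to tissues but not to single samples.

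The 8 libraries, 4 per tissue, were compared by limma (version 3.58.1, under R 4.3.3), fitted to the deposited values with no filter, adjusted over 38392 genes (threshold 0.05) and tested on simulated data. The authors had fitted DESeq2 to counts, and limma took its place because the deposited unit is log2. Ratios of 8 gene pairs, with a pseudocount of 0.5 normalised counts, were tested by exact permutation over the 70 assignments. Exon lengths and positions came from GENCODE for GRCm38, which held all 38392 identifiers (38000 with the same symbol), and promoter sequences from RefSeq GRCm38.p6, with an entry for 9 of the 10 genes. The genes and lists were chosen with earlier results of these data known. Of the pathway lists, the text names the 3 largest called rises and falls of each list, its 2 most abundant genes, genes paired in a ratio, and Ripk2, Il18, Gsdme and Nek7, and Gm15441 and Gm45205 for their overlap. The alternatives were a filter on low reads, other scalings, limma with trend or voom, other log scales, another length and each library left out in turn. The centring on genes with at least 10 reads was chosen after seeing the data.

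Marker lists other than those in the report gave these ranges of summed normalised counts. Monocyte and macrophage markers summed to 7172 to 10284 in marrow, mostly from Ly6c2, and 2800.5 to 4227 in intestine. Of these 12 markers 9 were called higher in intestine and 1, Ly6c2, lower. Dendritic cell markers summed to 309 to 369.8 and 524 to 2265, B and plasma cell markers to 245 to 404 and 427 to 2655, T cell markers to 28.0 to 67.9 and 150.5 to 205, mast cell and basophil markers to 2710.0 to 3714 and 583 to 1861, and erythroid markers to 747 to 945 and 1.19 to 20.8.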

Additional observations from a re-analysis of the deposited data

Results flagged for a closer look

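In 7 of 100 groups of 4 libraries, 1 library stood apart from the other 3, its gap to the nearest of them divided by the range of the group exceeding the tabulated critical value at the 95% level, and chance sets apart about 1 in 20 groups, here 5. In bone marrow the lowest library was BM_5 for Pycard (0.843) and Ninj1 (0.889) and BM_4 for Casp1 (0.861) and Brcc3 (0.906), and the highest was BM_4 for Slc15a4 (0.864). In small intestine the lowest library was SI_6 for Ripk2 (0.875) and Nfkb1 (0.860). For Casp1 the value in BM_4 was 145 normalised counts, against 567 to 706 in the other marrow libraries. For Nfkb1 it was 6893 in SI_6, against 10824 to 11645 in the other intestinal libraries. SI_6 was also the library with the highest sums of epithelial, dendritic cell, B and plasma cell, and monocyte and macrophage markers, and the part of these in Ripk2 and Nfkb1 was not tested.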

How the results depend on the processing

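Nlrp3, Nod2 and Txnip were called higher in all 16 alternative settings, Nod1 and Gsdmd in 15, and Casp1 and Casp4 in 0. Of the 10 genes, 0 were called lower on the deposited values, 1 with the filter on low reads, with limma's trend, with voom and with centring on genes of at least 10 reads (Nlrc4 each time), 2 with median centring, and 0 to 2 when a library was left out, the 2 (Nlrc4 and Pycard) without SI_6. Median centring left 3 genes called higher, took the median difference of the 10 genes to -0.31 and gave -0.51 for Aim2, -0.78 for Casp4, -0.11 for Gsdmd, -0.56 for Nek7, -0.86 for Casp8, and, with the sign kept, -0.99 for Casp1. The difference of Casp8 was -0.32 with quantile normalisation, -0.027 with centring on genes of at least 10 reads and -0.031 (without SI_11) to 0.099 when a library was left out. With a library left out, that of Casp1 was -0.60 (without BM_4) to 0.15, above 0 without BM_1, BM_3, BM_5 or SI_11, and the difference of Nlrc5 was -0.19 to 0.049, above 0 without SI_7, beside -0.96 with median centring. The pathway genes called lower were 8 on the deposited values, 14 with the filter, 18 with median centring, 14 with quantile normalisation and 13 on log2(normalised count + 5). With the longest transcript as length 6 genes kept their place in the intestinal order. The direction and side of the threshold of the 8 ratios were kept in each of their settings. The cause of these changes was not tested. No paired analysis was possible because the labels give the tissues no shared replicate number. Depth limits Nlrp3 most, with 2 to 13 reads in the marrow libraries.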
